A study of Mus musculus with 8 samples.

Results

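The 33 genes described here encode enzymes, membrane proteins, transporters and regulators of the lysosome. They were taken by name from a list of lysosomal genes, as every non-control probe whose gene symbol, or whose RefSeq accession, pointed to a listed gene. All 33 were on the array, among 47327 genes or identifiers in all, and were read by 57 probes. All 33 passed the filter on dim probes, as did 42476 of the genes or identifiers.

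The cells came from bone marrow chimeras. Wild-type mice received marrow that carried the fluorescent protein DsRed, either from Selplg knockout donors (Psgl1-/-) or from Selplg wild-type donors (Psgl1+/+), so the host brain kept its own wild-type cells and microglia in both groups. Selplg encodes PSGL-1, a leukocyte glycoprotein that binds selectins. Both groups underwent a 30 min occlusion of the middle cerebral artery, and the ischemic brain was taken 7 days after reperfusion. Live DsRed+ CD11b+ CD45hi cells that lacked Ly6G and CD3 were sorted, and their RNA was labelled with cyanine 3 for 4 single-colour arrays labelled Psgl1-/- (replicates 5 to 8) and 4 labelled Psgl1+/+ (replicates 1 to 4). The labels give neither the age of the mice nor the number of animals behind a sample. The p-values therefore describe the spread between samples alone, which may be technical.

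Lysosomes are acidic organelles in which hydrolases break down material taken up by phagocytosis, endocytosis or autophagy. Most of these enzymes are soluble, are tagged with mannose 6-phosphate in the Golgi and mature in the lysosome, while heavily glycosylated proteins such as LAMP1 and LAMP2 line the membrane. TFEB, a transcription factor, switches on many of these genes through short E-box elements. Macrophages that clear dead cells and myelin after a stroke depend on this machinery.

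Before scaling, the 75th percentile of the processed signal lay between 833.3 and 958.8 on the arrays labelled Psgl1-/-, above the 525.8 to 748.6 on those labelled Psgl1+/+. All levels below are log2 signals relative to that percentile of the same array, and each gene is read by its probe with the highest mean. Selplg itself had levels of 3.70, 3.90, 3.61 and 3.33 on the Psgl1-/- arrays, against 4.24, 3.13, 3.51 and 6.19 on the Psgl1+/+ arrays. This difference of -0.63 (SE 0.64, n = 4 each) did not pass the test (limma, adjusted p = 0.684). No label says whether the probe lies within the deleted part, so the groups are named by their labels. Monocyte and macrophage markers were well above background for 13 of 13 genes on all arrays. Their summed signal, in multiples of the 75th percentile, was 83.7 to 206 on Psgl1-/- arrays and 92.0 to 187 on Psgl1+/+ arrays. All markers of microglia (8), dendritic cells (8), oligodendrocytes (6), pericytes and fibroblasts (6) and erythroid cells (3) were also well above background on all arrays. Detection alone therefore does not identify the sorted cells. Summed microglia markers were 58.3 to 104 on Psgl1-/- arrays and 66.5 to 118 on Psgl1+/+ arrays. Summed neuron markers were 132 to 170 on Psgl1-/- arrays against 192 to 297 on Psgl1+/+ arrays, and summed B cell markers were 29.5 to 39.9 against 44.9 to 53.0. Between 6 and 8 of 8 neuron markers and between 4 and 5 of 5 B cell markers were well above background. These were the 2 of 14 marker lists whose sums did not overlap, and their part in the lysosomal values was not tested. Such linear sums give most weight to the brightest genes, Snap25 and Syt1 for neurons and Cd79a and Ms4a1 for B cells. Taken singly, 3 of 7 tested neuron markers and 1 of 5 B cell markers had every Psgl1-/- array below every Psgl1+/+ array. This pattern was seen in 10.8% of all tested genes. The differences of 2 of 7 neuron and 2 of 5 B cell markers lay above the median of all tested genes, -0.33. In such bulk samples, fewer cells of a type and less RNA per cell cannot be told apart, and the part of the scaling in these sums was not tested. Whether the signal of these probes comes from neurons or B cells at all was not tested either.

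None of the 33 lysosomal genes passed the adjusted threshold of 0.05 between the genotypes, and 0 of 33 had an unadjusted p under 0.05 (limma). Over all tested genes 0.00235% passed the adjusted threshold, which is 1 gene. That gene, Slc39a6, encodes a zinc transporter, is no lysosomal member and was named after its value was seen (log2 difference 4.72, limma adjusted p = 0.0125). An unadjusted p under 0.05 was found for 10.8% of all tested genes, 1.62% with a positive and 9.2% with a negative difference, where a difference is Psgl1-/- minus Psgl1+/+. The lowest adjusted p among the lysosomal genes was 0.458, for Galns. The members divided into 16 with a positive and 17 with a negative difference, while 31% of all tested genes had a positive one. Their median difference was -0.03, beside -0.33 over all tested genes, and 24 of 33 lay above that overall median. The overall median depends on the scaling, and was -0.17 after quantile normalization and -0.01 after cyclic loess, when the median of the members was 0.29 and 0.34. Galns was the 1 member whose groups did not overlap, with every Psgl1-/- array below every Psgl1+/+ array, a pattern seen in 10.8% of all tested genes.

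**Figure D1:**
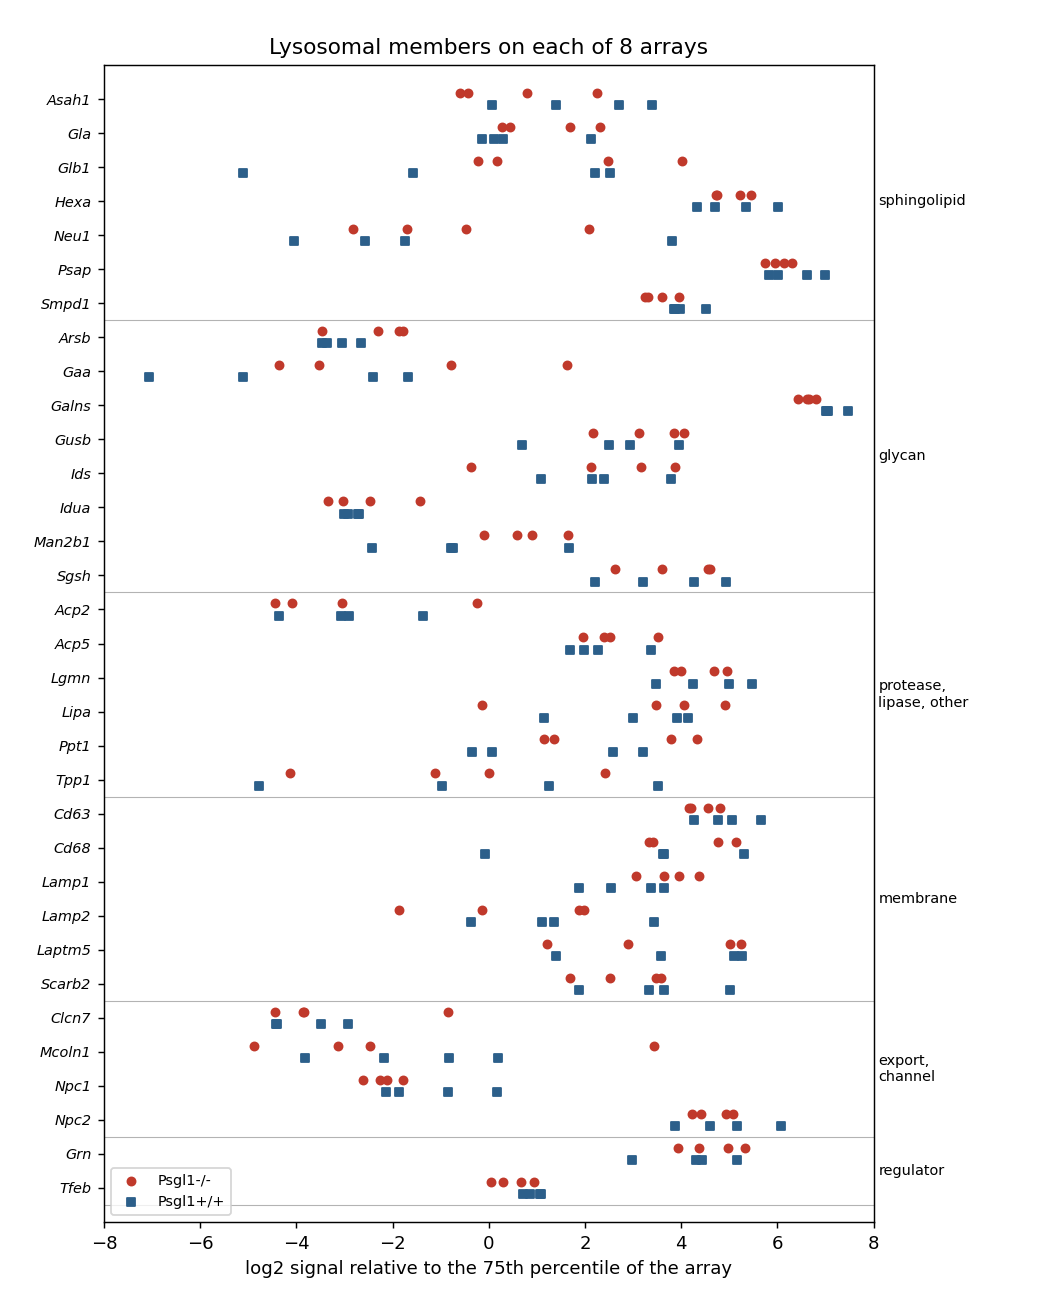
Level of each of the 33 lysosomal genes on each array, as log2 signal relative to the 75th percentile of the array, with 1 circle per Psgl1-/- array and 1 square per Psgl1+/+ array, grouped by role. In Galns the 4 circles lie below all 4 squares, and in each of the other genes circles and squares overlap.

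**Figure D2:**
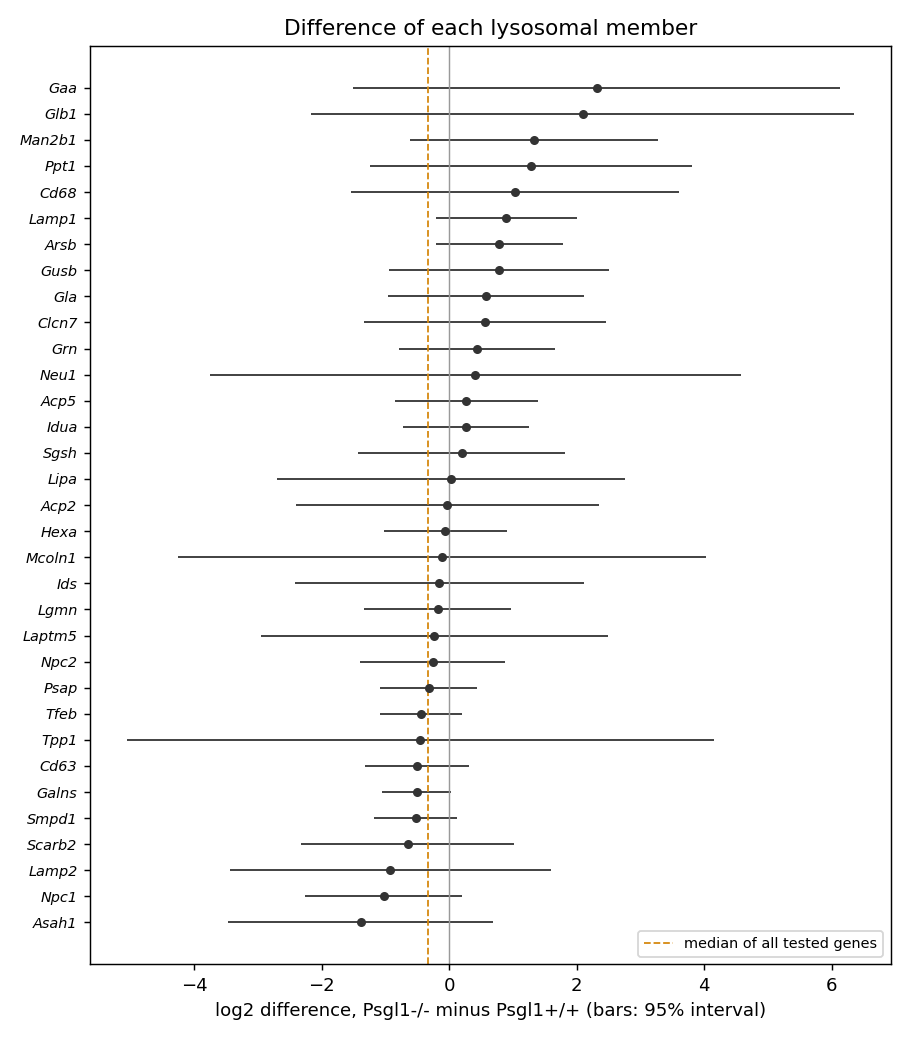
Difference of each lysosomal gene (Psgl1-/- minus Psgl1+/+, log2) with its 95% interval from limma (n = 4 per group). All 33 intervals include 0, and the dashed line marks the median of all tested genes at -0.33.

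The 7 enzymes and activators of sphingolipid breakdown had 3 positive and 4 negative differences, with a median of -0.06, and none passed the test. Asah1, the acid ceramidase, had the most negative difference of all members. Its levels were -0.59, 2.24, -0.42 and 0.79 on Psgl1-/- arrays, against 0.07, 1.40, 2.71 and 3.40 on Psgl1+/+ arrays. Replicates 3 and 4 exceeded every Psgl1-/- array, while replicates 1 and 2 lay within the Psgl1-/- range. The difference was -1.39 (SE 0.89, 95% interval -3.47 to 0.69, adjusted p = 0.526, limma). It was negative in all 20 settings run, from -1.999 to -0.89.

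Smpd1, the acid sphingomyelinase, had levels of 3.59, 3.96, 3.32 and 3.25 on Psgl1-/- arrays, against 3.86, 3.87, 4.52 and 3.98 on Psgl1+/+ arrays. A single Psgl1-/- array, replicate 6, reached the Psgl1+/+ range. The difference was -0.53 (SE 0.28, limma adjusted p = 0.479), and it lay between -0.67 and -0.18 in the 20 settings. Glb1, the lysosomal beta-galactosidase that also cleaves GM1 ganglioside, had a positive difference. Its levels were -0.23, 0.17, 4.01 and 2.47 on Psgl1-/- arrays, against 2.21, -1.57, -5.11 and 2.53 on Psgl1+/+ arrays. The lowest value, on Psgl1+/+ replicate 3, was not well above background. The groups overlapped between -0.23 and 2.53. The difference was 2.09 (SE 1.83, 95% interval -2.17 to 6.35, limma adjusted p = 0.632). It was 0.55 without Psgl1+/+ replicate 3, and over the 19 settings that could give it, it lay between 0.46 and 3.69.

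The other sphingolipid genes were Psap, Gla, Neu1 and Hexa. Psap, the precursor of the saposins that present lipids to the hydrolases, had levels of 5.75 to 6.31 on Psgl1-/- arrays and 5.82 to 6.98 on Psgl1+/+ arrays (difference -0.32). Gla, the alpha-galactosidase missing in Fabry disease, differed by 0.57, and Hexa, a subunit of beta-hexosaminidase, by -0.06. Neu1, the lysosomal sialidase, differed by 0.41 with an SE of 1.79, and its interval ran from -3.75 to 4.57. Neither direction of Neu1 can be read from these arrays.

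Of the 8 hydrolases of glycans and mucopolysaccharides, 6 had a positive and 2 a negative difference, with a median of 0.52, and none passed the test. Galns, a sulfatase that acts on keratan sulfate, had levels of 6.65, 6.61, 6.81 and 6.43 on Psgl1-/- arrays, against 7.02, 7.03, 7.04 and 7.46 on Psgl1+/+ arrays. The gap between the groups was small beside the range of most members, and Psgl1+/+ replicate 4 stood above the other 3 of its group. The difference was -0.51 (SE 0.23, 95% interval -1.05 to 0.02, limma adjusted p = 0.458), or 1.43-fold on a linear scale. Its sign turned with the scaling. After cyclic loess it was 0.0126, and it was 0.122 in the value table of the authors, after normexp with quantile normalization, and after quantile normalization alone.

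The probe behind this Galns value carries letters that recur in the genome. It is shown for these letters, and their part in its signal was not tested. It was the only probe of the 57 that shared a run of 16 or more bases, on either strand, with RefSeq promoters of at least 5 other genes, and it shared one with promoters of 26. The capitals mark bases inside runs of 16 found in the promoters of at least 5 genes, and the run of capitals resembles the B1 repeat family of mouse. The first line is a stretch of 30 bases of this probe, and the second holds the first 30 bases of the other Galns probe, which shared no such run.
Galns NM_016722.4: ttggGAGTGCTGGGATTAAAGGCGTGcgcc
Galns XM_006531177.1: actgctcatggacgatatggggtggggtga

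On the array as a whole, 1438 tested genes were read by a probe that shared such runs with at least 5 other promoters. Their median difference was -0.54, and in 44.9% of them every Psgl1-/- array lay below every Psgl1+/+ array. Among the other 41038 tested genes the median was -0.31 and the share 9.63%. These sets of genes were not matched for signal level. The run length and the minimum of 5 promoters were chosen after the data were seen, and the part of repeats in the Galns value was not tested. The second Galns probe had levels of 0.00, 0.22, -0.01 and -0.05 on Psgl1-/- arrays, against 0.46, 0.76, 0.66 and 0.14 on Psgl1+/+ arrays. Here the groups overlapped through Psgl1+/+ replicate 4, with a difference of -0.46 (SE 0.24, limma adjusted p = 0.492 over all probes).

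Gaa, the acid alpha-glucosidase that breaks down glycogen, had the largest positive difference of all members. Its levels were -0.78, -4.35, 1.63 and -3.53 on Psgl1-/- arrays, against -5.12, -1.68, -2.42 and -7.07 on Psgl1+/+ arrays. On 3 of 4 Psgl1+/+ arrays it was well above background. Psgl1-/- replicates 5 and 7 exceeded every Psgl1+/+ array, and replicates 6 and 8 lay inside the Psgl1+/+ range. The difference was 2.31 (SE 1.65, 95% interval -1.51 to 6.13, limma adjusted p = 0.559), and it lay between 1.11 and 3.18 in the 19 settings that could give it. The other tested Gaa probe, well above background on 7 of the 8 arrays, differed by -0.09 (SE 0.66).

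Man2b1, the lysosomal alpha-mannosidase, had levels of -0.10, 0.58, 1.66 and 0.89 on Psgl1-/- arrays, against -2.43, -0.74, 1.68 and -0.80 on Psgl1+/+ arrays. All Psgl1-/- arrays exceeded 3 of the 4 Psgl1+/+ arrays, and replicate 3 exceeded them all. The difference was 1.33 (SE 0.84, limma adjusted p = 0.522), and it was positive in all 20 settings, from 0.71 to 2.08. Arsb, the sulfatase that trims dermatan sulfate, had levels of -1.87, -2.29, -3.46 and -1.78 on Psgl1-/- arrays, against -3.37, -3.05, -2.66 and -3.47 on Psgl1+/+ arrays. Psgl1-/- replicate 7 alone fell inside the Psgl1+/+ range, and the difference was 0.78 (SE 0.43, limma adjusted p = 0.483). With the mean over its probes it was -0.35. Gusb, the beta-glucuronidase, differed by 0.78 (limma adjusted p = 0.658). Its difference was 0.17 without Psgl1+/+ replicate 4 and 0.09 with the mean over its probes. Of the 3 heparan sulfate enzymes, the iduronidase Idua differed by 0.26, the sulfohydrolase Sgsh by 0.20 and the iduronate sulfatase Ids by -0.15, each by less than the spread between arrays.

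The 6 genes for proteases, a thioesterase, phosphatases and a lipase had 3 positive and 3 negative differences. Ppt1, the thioesterase that removes palmitate from proteins, had levels of 1.15, 3.80, 1.36 and 4.34 on Psgl1-/- arrays, against 0.07, -0.34, 2.57 and 3.20 on Psgl1+/+ arrays. Each group held 2 high and 2 low arrays. The difference was 1.28 (SE 1.09, limma adjusted p = 0.619), between 0.39 and 1.89 over the 20 settings. Tpp1, a tripeptidyl peptidase, spread from -4.12 to 2.42 on Psgl1-/- arrays and from -4.79 to 3.51 on Psgl1+/+ arrays. Lipa, the acid lipase that frees cholesterol from its esters, had levels of -0.15 to 4.91 on Psgl1-/- arrays and 1.14 to 4.14 on Psgl1+/+ arrays (difference 0.03, SE 1.17). Lgmn, an asparaginyl endopeptidase, differed by -0.18, Acp2, the lysosomal acid phosphatase, by -0.03 and Acp5, the tartrate-resistant acid phosphatase, by 0.27.

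Among the 6 membrane proteins, 2 had a positive and 4 a negative difference, with a median of -0.37. Lamp1, an abundant glycoprotein of the lysosomal membrane, had levels of 3.65, 3.06, 4.36 and 3.95 on Psgl1-/- arrays, against 3.38, 2.55, 3.65 and 1.88 on Psgl1+/+ arrays. Psgl1-/- replicates 7 and 8 exceeded every Psgl1+/+ array, and replicates 5 and 6 lay within their range. The difference was 0.89 (95% interval -0.21 to 2.00, limma adjusted p = 0.479), and it was positive in all 20 settings, from 0.49 to 1.22. Its relative Lamp2, which also serves chaperone-mediated autophagy, had levels of -0.13, -1.87, 1.97 and 1.87 on Psgl1-/- arrays, against 1.36, -0.36, 1.11 and 3.43 on Psgl1+/+ arrays. The difference was -0.92 (SE 1.08, limma adjusted p = 0.727), and it was 0.24 when all Lamp2 probes were averaged. The opposite signs of Lamp1 and Lamp2 are therefore not shown to be a difference between the genes.

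Cd68, a sialomucin used as a marker of phagocytes, had levels of 3.32, 3.40, 5.14 and 4.76 on Psgl1-/- arrays, against 3.62, -0.07, 3.64 and 5.31 on Psgl1+/+ arrays. On this probe Psgl1+/+ replicate 2 was the lowest of the 8 arrays. The difference was 1.03 (95% interval -1.53 to 3.60, limma adjusted p = 0.699), and without that array it was -0.033. A second probe of the same accession read Psgl1+/+ replicate 2 at 3.47 and was lowest on Psgl1+/+ replicate 1, at -0.21. That probe differed by 1.59 (SE 0.96). The third Cd68 probe was lowest on Psgl1+/+ replicate 2, at -1.10, and differed by -0.48 (SE 1.27). Scarb2, the receptor that carries glucocerebrosidase to the lysosome, had levels of 2.52, 3.57, 3.47 and 1.69 on Psgl1-/- arrays, against 3.33, 1.88, 3.64 and 5.02 on Psgl1+/+ arrays. The difference was -0.65 (SE 0.72, limma adjusted p = 0.708), and it was 1.48 when both Scarb2 probes were averaged. Cd63, a tetraspanin of late endosomes, had levels of 4.17, 4.20, 4.80 and 4.55 on Psgl1-/- arrays, against 4.77, 4.26, 5.06 and 5.66 on Psgl1+/+ arrays. Its difference of -0.50 (SE 0.35, limma adjusted p = 0.552) shrank with the scaling, to -0.11 after cyclic loess and -0.14 after quantile normalization. It was -0.012 in the value table of the authors, which has fewer rows than there are probes. Both Cd63 probes are named for the same accession, so that value may not be for the same probe. Laptm5, a membrane protein of blood cell lysosomes, differed by -0.24 (SE 1.17).

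The 4 genes of cholesterol export and ion transport had 1 positive and 3 negative differences. Npc1, the membrane protein that exports cholesterol, had levels of -1.79, -2.11, -2.27 and -2.62 on Psgl1-/- arrays, against -0.86, 0.18, -2.13 and -1.87 on Psgl1+/+ arrays. The 4 Psgl1-/- arrays lay close together, and Psgl1+/+ replicates 3 and 4 lay among them. The difference was -1.03 (SE 0.53, 95% interval -2.26 to 0.20, limma adjusted p = 0.474), and it turned to 0.33 when the Npc1 probes were averaged. That average includes untested probes, each well above background on only 1 array. Its soluble partner Npc2, which hands cholesterol to NPC1, differed by -0.26, the calcium channel gene Mcoln1 by -0.11 and the chloride and proton exchanger gene Clcn7 by 0.56. Clcn7 had levels of -3.86, -3.85, -0.84 and -4.44 on Psgl1-/- arrays, against -4.42, -3.49, -4.39 and -2.92 on Psgl1+/+ arrays. Psgl1-/- replicate 7 stood above the other 7 arrays, and without it the difference was -0.25.

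Of the regulators, Tfeb had levels of 0.95, 0.66, 0.05 and 0.29 on Psgl1-/- arrays, against 1.08, 1.07, 0.71 and 0.85 on Psgl1+/+ arrays. Replicates 7 and 8 were the lowest of the 8 and replicate 5 lay inside the Psgl1+/+ range. The difference was -0.44 (SE 0.28, limma adjusted p = 0.519), negative in all 20 settings, from -0.60 to -0.12. It lay near the median of all tested genes, -0.33, at percentile 41.3 of their differences. Grn, which encodes progranulin, a secreted protein that reaches lysosomes and is cut there into granulins, had levels of 3.94 to 5.32 on Psgl1-/- arrays and 2.97 to 5.17 on Psgl1+/+ arrays, with a difference of 0.43.

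Several members were read by more than 1 probe, and the probes often went different ways. Of 52 tested probes, 19 were the only tested probe of their gene, and 14 genes had several. The 14 genes had 19 further probes, 10 with the sign of the brightest probe and 9 with the opposite one. All tested probes of Cd63, Clcn7, Galns, Laptm5 and Smpd1 had 1 sign, while the other 9 genes had probes of both signs. At the level of single probes, 3 of 52 (5.77%) had an unadjusted p under 0.05, beside 10.3% of 51384 tested probes on the array. None of the 52 passed the adjusted threshold, which 0.0175% of all tested probes passed (lowest adjusted p = 0.477, limma over all probes).

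**Figure D3:**
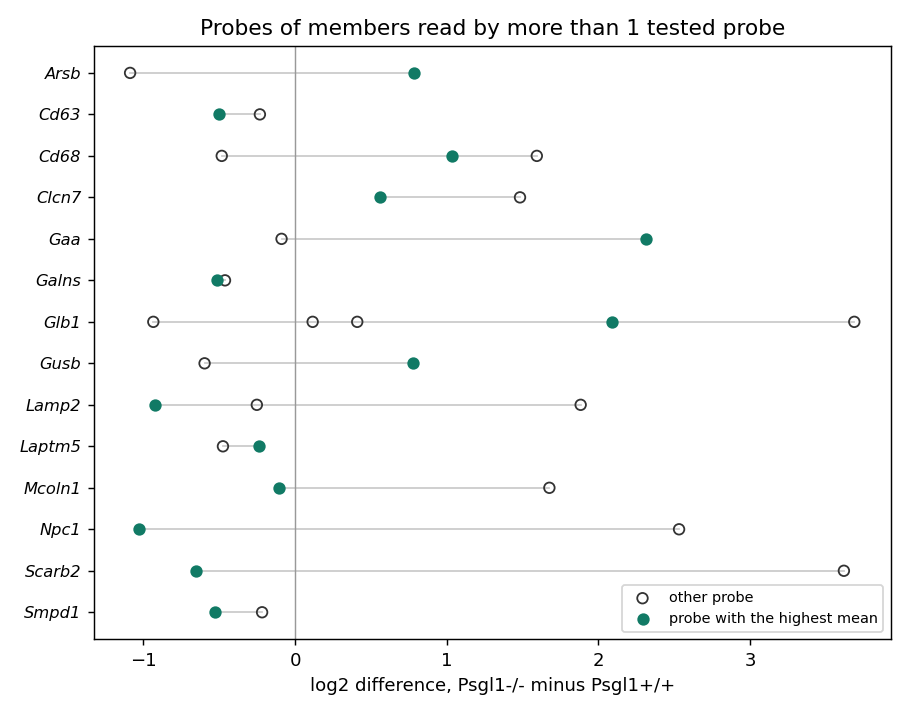
Difference (Psgl1-/- minus Psgl1+/+, log2) of every tested probe of the 14 lysosomal genes read by more than 1 tested probe, with filled circles for the probe with the highest mean and open circles for the others. Probes of Glb1 spread from -0.93 to 3.69 and those of Scarb2 from -0.65 to 3.62.

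Glb1 was read by 5 probes, and they show the spread best. Because their differences ran from -0.93 to 3.69, the first 30 bases of each are given, and no letters are in capitals.
Glb1 M57734: tcctgatttgaaataatcacgtcatctttc
Glb1 NM_009752.2: acaccacaggaagacacaggttggagcaaa
Glb1 AK076517: cagacctgccacaggacaccttcatccagt
Glb1 AK042069: gcaagcttaagagcctgagatcacatcagc
Glb1 AK167271: cctgatctacataagggttacatagggaga

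The probe named for NM_009752.2 had levels of -1.49, 1.06, 4.34 and 2.53 on Psgl1-/- arrays, against -2.34, -0.81, -3.18 and -1.97 on Psgl1+/+ arrays. Psgl1-/- replicate 5 was the only one of its group inside the Psgl1+/+ range, and the difference was 3.69 (SE 1.19, limma adjusted p = 0.477). The probe of AK076517 had levels of -1.13, -0.04, -0.63 and -1.42 on Psgl1-/- arrays, against -0.02, 0.15, -0.09 and 0.49 on Psgl1+/+ arrays, which is a difference of -0.93 (SE 0.36, limma adjusted p = 0.477). Those of AK042069 and AK167271 differed by 0.12 and 0.41. In the mm9 coordinates of the files, the probes lay on the plus strand of chromosome 9, AK167271 at chr9:114348787-114348846, AK042069 at chr9:114366692-114366751, AK076517 at chr9:114373365-114373424 and M57734, whose probe has the highest mean, at chr9:114383440-114383499. The files give no position for the probe of NM_009752.2. Which transcripts or exons each probe reads was not analysed here.

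The tested Arsb probes had opposite signs. Its brightest probe, for NM_009712.3, differed by 0.78, and the probe of AK037155 by -1.09 (SE 0.40, limma adjusted p = 0.477). The AK037155 probe lies on the minus strand at chr13:94541097-94541156 (mm9), opposite to the plus strand that RefSeq gives for Arsb, while the files give no strand for the NM_009712.3 probe. A bearing of strand on the signs was not tested. Both are given to show that they are different sequences, as their first 30 bases in lower case.
Arsb NM_009712.3: tgtgactgtaggcagtgtttggaatattag
Arsb AK037155: gtgataactgttaggtggagagagaaaaaa

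For Npc1, the probe of NM_008720.2 differed by 2.53 (SE 1.32), against -1.03 for the brightest probe, which is named for a transcript of another accession. Its levels were -4.99, -3.59, 1.36 and -1.23 on Psgl1-/- arrays, against -4.77, -5.28, -3.26 and -5.27 on Psgl1+/+ arrays. The second Scarb2 probe differed by 3.62 (SE 2.36), a second Lamp2 probe by 1.88 (SE 1.15) and the second Mcoln1 probe by 1.68 (SE 1.16). None of these passed the test, and the sign of these 4 genes depended on the probe.

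The members varied widely between arrays of a genotype. The range over the 8 arrays was under 2 log2 units in 9 members, 2 to 4 in 11, and 4 or more in 13. Tfeb and Galns had the narrowest ranges, 1.03 and 1.04, and Glb1 (9.12, or 558-fold), Gaa (8.70), Mcoln1 (8.30) and Tpp1 (8.29) the widest. The pooled SD within groups had a median of 1.105 over the members and 0.757 over all tested genes, and 21 of 33 members lay above 0.757.

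The highest levels were not scattered evenly over the arrays. Psgl1-/- replicate 7 held the highest level of 10 members (30.3%), against 9.45% of all tested genes. Psgl1+/+ replicate 4 held that of 11 members (33.3%), close to its 27.8% of all tested genes, so its share is not particular to the members. Psgl1-/- replicate 5 held the highest level of 0 members, against 9.66% of all tested genes. The lowest levels were spread more evenly, with 6 members each on Psgl1-/- replicates 5 and 8 and 5 each on Psgl1+/+ replicates 1, 2 and 4. The matching shares of lowest levels over all tested genes were not computed. The median level of the 33 members was 0.95, 2.12, 3.47 and 3.16 on Psgl1-/- arrays, against 1.98, 1.88, 3.51 and 2.53 on Psgl1+/+ arrays. Psgl1-/- replicate 5 was thus the lowest of the 8 and Psgl1+/+ replicate 3 the highest. The median over the 13 monocyte and macrophage markers was -0.17, 0.37, 3.20 and 2.57 on Psgl1-/- arrays, against -1.50, -0.90, 3.02 and 2.51 on Psgl1+/+ arrays. Psgl1-/- replicates 7 and 8 and Psgl1+/+ replicates 3 and 4 were the highest 4 arrays in both measures, and the part of these cell markers in the array pattern was not tested. The median difference of the members depended on single arrays. Without Psgl1-/- replicate 7 it was -0.30, beside -0.29 over all genes, with 12 positive members, and without Psgl1-/- replicate 5 it was 0.61, with 21 positive members. Without both Psgl1-/- replicates 7 and 8 it was -0.42, with 9 positive members and 24 negative ones.

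**Figure D4:**
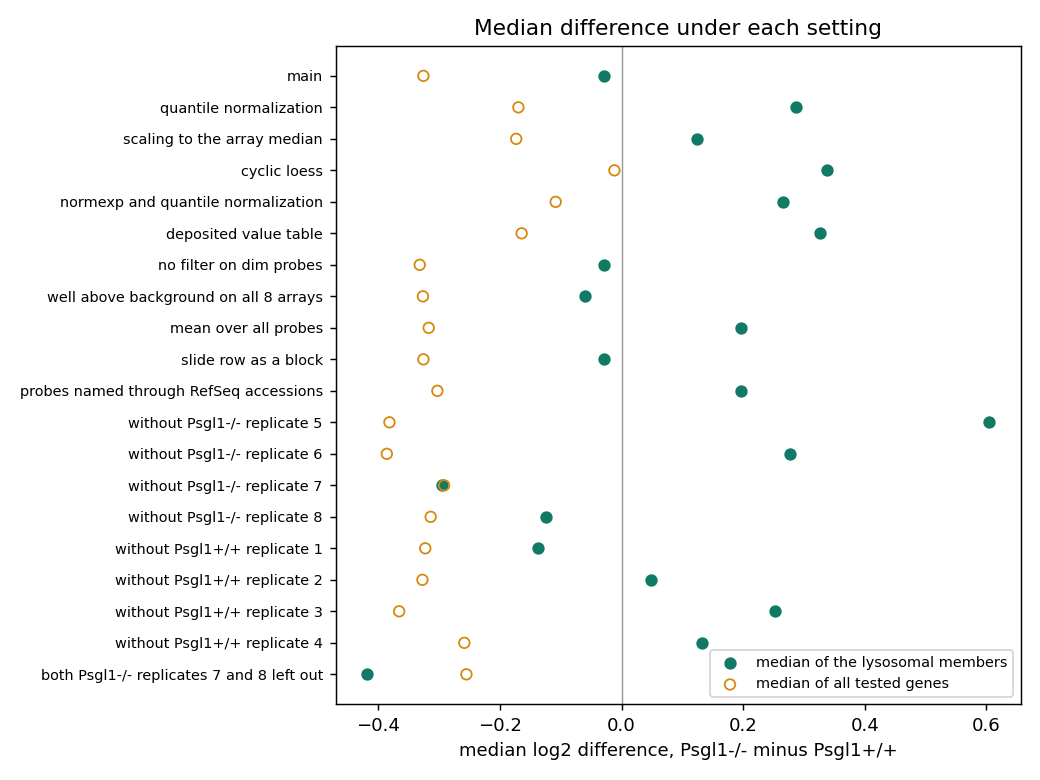
Median difference (Psgl1-/- minus Psgl1+/+, log2) of the lysosomal genes, filled, and of all tested genes, open, under each of 20 settings. The median of the members runs from -0.42 to 0.61 and is negative in the setting without Psgl1-/- replicate 7 and positive in that without replicate 5.

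TFEB binds E-boxes with the core CACGTG, and an extended form, TCACGTGA, is the core of the CLEAR element found near lysosomal genes. RefSeq promoters (250 bases before to 50 after the start, GRCm38.p6) were given for 30 of the 33 members. CACGTG, which reads the same on both strands, was in the promoters of 8 of these 30 (26.7%), beside 8.09% of 27025 genes: Clcn7, Gaa, Gla, Glb1, Lamp1, Lgmn, Mcoln1 and Sgsh. TCACGTGA, every copy of which also holds CACGTG, was in those of 3 (Clcn7, Gla and Mcoln1, 10%), beside 1.12% of genes. The palindrome that adds a G before and a C after TCACGTGA was in 0 of 30, beside 0.37% of genes. A match is a description of letters, not a bound site. Windows of 30 bases with the longest core in capitals are shown for the members with TCACGTGA and for Lamp1, Gaa and Glb1, which had positive differences in the arrays. Those of Lgmn (difference -0.18) and Sgsh (0.20) are not shown, nor are some further copies of CACGTG.
Clcn7 chr17:25133386-25133415 plus strand: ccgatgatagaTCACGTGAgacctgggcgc
Gla chrX:134601215-134601244 minus strand: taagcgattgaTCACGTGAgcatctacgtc
Gla chrX:134601182-134601211 minus strand: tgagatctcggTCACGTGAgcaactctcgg
Mcoln1 chr8:3500462-3500491 plus strand: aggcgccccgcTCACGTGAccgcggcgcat
Lamp1 chr8:13159088-13159117 plus strand: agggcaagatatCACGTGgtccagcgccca
Lamp1 chr8:13159134-13159163 plus strand: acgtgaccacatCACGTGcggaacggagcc
Gaa chr11:119267811-119267840 plus strand: tttctgtgcgatCACGTGtttgactctgac
Glb1 chr9:114401018-114401047 plus strand: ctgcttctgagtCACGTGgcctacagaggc

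Of the 8 members with CACGTG, 6 had a positive difference (median 0.57), and of the 22 with a promoter but without it, 10 (median -0.04). Over all tested genes 31% had a positive difference (median -0.33). The share among all genes with CACGTG was not computed. This is a count without a test, over genes whose own differences did not pass. The counts were 8 of 8 and 15 of 22 after quantile normalization, 8 of 8 and 16 of 22 after cyclic loess, and 3 of 8 and 6 of 22 without Psgl1-/- replicates 7 and 8. Tfeb itself had a negative difference near the median of all tested genes, as given above, and a part of TFEB in these signs was not tested.

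The neighbouring parts of the lysosomal system were read from 7 further lists, with 139 genes on the array and 137 tested. None of the 137 passed the adjusted threshold, and their median difference was -0.01, beside -0.33 over all tested genes. At an unadjusted p under 0.05 (limma), 6 were higher and 6 lower, beside 1.62% and 9.2% of all tested genes. The counts of signs below stand beside 31% of all tested genes with a positive difference. The proton pump that acidifies lysosomes, the V-ATPase, had 12 positive and 6 negative differences among 18 subunits and partners, with a median of 0.21. The subunit gene Tcirg1 had levels of 2.83, 2.30, 2.55 and 2.46 on Psgl1-/- arrays, against 2.06, 1.24, 1.89 and 0.64 on Psgl1+/+ arrays. Every Psgl1-/- array lay above every Psgl1+/+ array, as in 0.647% of all tested genes, and the difference was 1.08 (SE 0.36, limma adjusted p = 0.458). Of the 137 genes, 1 had this pattern and 8 had the reverse one, which 10.8% of all tested genes had. The subunit genes Atp6v1c1 and Atp6v0b, differed by 5.76 (SE 1.4998) and 1.12 (SE 0.48), with overlapping groups.

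Among 34 other hydrolases and activators, 19 differences were positive and 15 negative, with a median of 0.24. Dnase2a, the acid DNase, differed by -0.64 (SE 0.23), and Hyal1, a hyaluronidase, by -0.79 (SE 0.29). For Dnase2a every Psgl1-/- array lay below every Psgl1+/+ array, as in 10.8% of all tested genes. The 11 tested cathepsins had 7 positive and 4 negative differences (median 0.10), led by Ctsh (0.94), Ctso (2.06) and Ctsf (2.38), none with an unadjusted p under 0.05.

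Of 29 tested membrane proteins and transporters, 12 had a positive and 17 a negative difference (median -0.19). Ctns, the cystine exporter, differed by -0.73 (SE 0.26) and Slc17a5, the sialic acid exporter, by -0.64 (SE 0.25). Both had every Psgl1-/- array below every Psgl1+/+ array, as did 10.8% of all tested genes. The probe of Slc17a5 shared runs of 16 bases with promoters of 160 other genes, and its difference was 0.0053 after quantile normalization. Slc11a1, the metal transporter of phagosomes, differed by 2.26 (SE 0.91). In mannose 6-phosphate sorting, 6 of 14 differences were positive and 8 negative (median -0.10). Ap1m1, an adaptor subunit, had levels of 3.96, 3.94, 3.80 and 3.77 on Psgl1-/- arrays, against 4.76, 4.45, 4.50 and 5.38 on Psgl1+/+ arrays, without overlap (difference -0.91, SE 0.28, limma adjusted p = 0.458). Vps26a, a retromer subunit, differed by 2.91 and Gnptg, a subunit of the enzyme that starts the mannose 6-phosphate tag, by 3.37.

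For the TFEB and mTORC1 control genes, 3 of 16 differences were positive and 13 negative (median -0.45). Rraga, a Rag GTPase that recruits mTORC1 to the lysosome, differed by 1.18, Lamtor4, a part of its anchor, by -1.15, and Ppp3cb, a catalytic subunit of calcineurin, by -3.38, which turned to 0.81 when its probes were averaged. Endosome to lysosome fusion had 8 positive and 7 negative differences among 15 genes (median 0.01). Arl8a, a GTPase that moves lysosomes, differed by -0.55, Vti1b, a SNARE, by 1.23 and Vps11, a tethering subunit, by -1.89. For Arl8a all Psgl1-/- arrays lay below all Psgl1+/+ arrays, as in 10.8% of all tested genes. All 137 tested genes together had 67 positive and 70 negative differences.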

How the data were processed

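The deposited scanner files give the intensity of each spot on a linear scale. Per the file headers, Agilent Feature Extraction 11.5.1.1 read them, corrected them for background and mapped the design to mm9. A second deposited table by the authors held linear intensities in 59448 rows and identical sorted values per array (column median 132.9). Its scale, centring and normalization are not given in the sources used here, and it was an alternative. Control (1439) and outlier spots (25 to 149 per array) were left out, and 0 spots were saturated. Between 76.1% and 88.2% of gene spots were well above background, and the number of arrays limits the precision. All arrays lay on 1 slide, where group and slide column cannot be told apart.

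Of 60273 probes, 31064 were named by RefSeq accession (GRCm38.p6 table, names only), 8935 by symbol and 420 by synonym. Levels are log2 processed signal minus the 75th percentile of the array. Genes whose probe was well above background on 4 or more of the 8 arrays were fitted with limma 3.58.1 (R 4.3.3, lmFit and eBayes, two-sided, Benjamini-Hochberg over all genes at 0.05). The fit was tested on simulated data. The 20 settings are this one and 19 alternatives. The mean over probes takes all probes of a gene, including those that failed the filter on dim probes. All settings draw on the same 8 arrays. Several must return the same difference for a gene with a single probe well above background on every array. A sign kept over the settings is therefore no independent support.

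The members and gene lists were chosen with earlier results of these data known. Array values are given for members with an unadjusted p under 0.05 or without overlap and for the 6 most positive and 4 most negative differences. Others, such as Arsb, Cd63, Smpd1, Tfeb and Clcn7, were added after their values were seen. Each other list names the 3 genes with the smallest unadjusted p, except for 1 gene that is not reported here. The place of probes in the protein was not analysed here.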

Additional observations from a re-analysis of the deposited data

Results flagged for a closer look

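In Galns, Psgl1+/+ replicate 4 stood apart from its group, at 7.46 against 7.02 to 7.04 on the other 3 Psgl1+/+ arrays. In Clcn7, Psgl1-/- replicate 7 stood apart, at -0.84 against -4.44 to -3.85 on the other 3 Psgl1-/- arrays. Both were marked by the gap to the nearest array relative to the range of the group, above Dixon's 95% critical value for 4 arrays. These are 2 of 66 groups examined, and chance alone marks about 1 in 20.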

How the results depend on the processing

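No lysosomal member passed the adjusted threshold in any of the 20 settings (lowest adjusted p = 0.415, limma), while at an unadjusted p under 0.05 between 0 and 2 members were higher and 0 or 1 lower. The count over all genes, 1 as reported, was 4 after cyclic loess, 7 for genes well above background on all 8 arrays, 6 with the mean over probes, 2 with slide row as a block and 12 with RefSeq-named probes (chosen after seeing the data). It was 0 without both Psgl1-/- replicates 7 and 8 (limma, where 940 genes were higher and 875 lower before adjustment, at p under 0.05). Leaving out single arrays gave 0 to 10 genes: 3, 10, 0 and 2 without Psgl1-/- replicates 5, 6, 7 and 8, and 0, 4, 10 and 4 without Psgl1+/+ replicates 1, 2, 3 and 4. The counts of 0, by limma, stood beside 768 genes higher and 2024 lower by the unadjusted p without Psgl1-/- replicate 7 and 605 and 2859 without Psgl1+/+ replicate 1. In the other lysosomal lists the count ran from 0 to 1, and was 1 without Psgl1+/+ replicate 3. The split of genes at an unadjusted p under 0.05 moved with the scaling: 687 higher and 3907 lower as reported, 906 and 1887 after quantile normalization, 884 and 1789 with the array median, 1251 and 803 after cyclic loess, 836 and 1923 after normexp, and 917 and 1855 in the deposited value table.

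Over the settings, 10 of the 33 members kept 1 sign (Asah1, Cd63, Gaa, Glb1, Gusb, Lamp1, Man2b1, Ppt1, Smpd1 and Tfeb) and 23 took both, in 87 of 624 member values. Among those that kept 1 sign, Gaa, Glb1 and Gusb nevertheless had tested probes of both signs. Among the genes named by rule, signs turned for Galns, Slc17a5, Npc1, Lamp2, Scarb2, Ppp3cb and Cd68. Galns was 0.122 after quantile normalization, after normexp and in the value table, and 0.0126 after cyclic loess. Slc17a5 was 0.00534 after quantile normalization, 0.00221 after normexp, 0.0089 in the value table and 0.25 with the mean over probes. That mean gave 0.33 for Npc1, 0.24 for Lamp2, 1.48 for Scarb2 and 0.81 for Ppp3cb, and RefSeq-named probes gave 2.53 for Npc1 and 1.34 for Ppp3cb. Cd68 ran from -0.0333 without Psgl1+/+ replicate 2 to 1.76 without replicate 4. The cause was not tested. Of the values of genes named by rule under alternatives, 587 kept their sign and side of the threshold and 15 turned sign. No paired analysis was possible because the groups share no replicate numbers. Intervals over 4 arrays per group include differences of several log2 units in either direction for Glb1.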
